A study of Rattus norvegicus with 15 samples.

Results

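Guidance genes encode the ligands and receptors by which cells attract, repel and sort one another. They were read from an RNA sequencing table of rat bone marrow mesenchymal stem cells as the genes whose symbol begins with Sema, Plxn, Nrp, Efna, Efnb, Epha, Ephb, Slit, Robo, Ntn or Unc5 plus a digit or, for Sema and Plxn, a letter, together with Reln. The name rule found 42 genes of the 12169 in the table: 11 semaphorins, 5 plexins, 2 neuropilins, 7 ephrins, 8 Eph receptors, 2 Slits, 2 Robos, 3 netrins, Reln and Unc50. Unc50 meets the rule by its letters alone and is not a netrin receptor, while the netrin receptors Unc5b and Unc5c do not meet it and are given separately. Values are FPKM, fragments mapped to a gene scaled by its length and by the library's total, so levels can be set side by side between genes. Every gene in the table averaged at least 0.50 FPKM in its highest group. Shares of all genes are thus over expressed genes, and a gene that is not listed may have been below that level. A gene was tested if it reached 1 FPKM in at least 3 of the 15 libraries. Of the 42, 38 passed, and Epha4, Efna2, Efna3 and Ntn1 did not, their highest value in any library being 1.17 FPKM. Reln passed only through the 6 libraries after deprivation and Epha3 only through the 3 shLuci libraries, so a difference for either was built into the filter.

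The cells came from the femoral marrow of Sprague Dawley rats and were used at passages 3 to 5. There were 5 groups of 3 libraries. BMSC had received no virus. A lentivirus carried either a control short hairpin that targets luciferase (shLuci) or one that targets Rac1 (shRac1), and each of these was also sequenced after OGD, short for oxygen-glucose deprivation (shLuci+OGD, shRac1+OGD). OGD was 12 h at 1% O2 in medium without sugar, followed by 24 h of reoxygenation. The other 3 groups grew in high-glucose medium with serum, and whether the OGD medium held serum is not stated. No age of the animals, promoter of the hairpin or measure of infection is given. The labels do not say that replicates were separate cultures or animals, so p-values measure the spread between these libraries, which may be technical.

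As background, semaphorins signal through plexins, and the secreted class 3 members mostly need a neuropilin as co-receptor. Ephrins are ligands held on the cell surface that bind Eph receptor kinases on a neighbouring cell, and signals pass into both cells. Slits bind Robo receptors, netrins bind Dcc and Unc5 receptors, and Reln, a large secreted protein, binds the lipoprotein receptors Vldlr and Lrp8. Many of them have been studied in growing axons, and many act through small GTPases, Rac1 among them, on the actin skeleton. In the skeleton, ephrin-B and Eph-B pairs are known in the exchange between bone-forming and bone-resorbing cells.

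Rac1, the gene the hairpin targets, was not called lower in the libraries titled shRac1. It stood between 139 and 168 FPKM in all 15, with the undeprived shRac1 libraries differing from shLuci by -0.09 on the log2 scale (SE 0.08, limma adjusted p = 0.577). An exact two-sided permutation test gave p = 0.3, and 3 against 3 libraries cannot give less than 0.1. After OGD the log2 difference was -0.0035 (limma adjusted p = 0.9995), and the exact permutation test gave p = 1. Under library weighting the first difference became -0.07 and was called (limma adjusted p = 0.0295). The authors' deposited lists of changed genes cover 6 pairs of groups. Among them shLuci+OGD is set against shRac1 and shRac1+OGD against BMSC, and no list sets an OGD group against the undeprived group with the same hairpin in its title. The hairpin of each group rests on the sample labels alone. The comparisons of all OGD with all undeprived libraries and of shRac1+OGD with shLuci+OGD come first, since neither depends on which undeprived group is which, though the second still rests on the labels of the OGD groups.

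BMSC replicate 2 stood apart. Its FPKM summed to 628685 against 463945 to 516495 in the other libraries. It was the lowest of the 3 BMSC libraries in 33 of the 38 tested guidance genes (86.8%), against 54.1% of all 11515 genes tested. Sema3d, for example, was listed at 12.2 and 9.18 FPKM in BMSC replicates 1 and 3 and at 0.829 in replicate 2. Counts of called guidance genes in the 10 comparisons are given with and without it. Counts under other scalings, filters or fits are given without the share of all genes, so they show only how far a count moved. Of markers for the cells, Thy1, Cd44, Pdgfra and 4 others of 11 stromal genes were in the table and all 7 averaged at least 1 FPKM, with a sum between 4133 and 5609 in every library. The sums lay between 0.377 and 1.97 FPKM for endothelial markers (2 of 8 listed) and between 8.03 and 12 in undeprived and 10.7 and 15.6 in OGD libraries for haematopoietic and macrophage markers (4 of 10 listed, with only Cd14 averaging 1 FPKM), and none of 5 erythroid markers was listed. Ptprc, Pecam1, Cdh5 and Sox10 are not among the genes listed. The neuronal marker Tubb3 was present and differed between the groups: BMSC had 10.3 ± 0.286 FPKM, followed by 4.41 ± 0.478 in shLuci, 2.44 ± 0.0949 in shRac1, 2.08 ± 0.229 in shLuci+OGD and 7.45 ± 0.588 in shRac1+OGD (mean ± SD, n = 3). Of 8 neuronal and Schwann cell markers, 3 were listed and only Tubb3 averaged 1 FPKM. S100b, another of the 3, went the other way between shLuci and BMSC (log2 change 1.29, limma adjusted p = 3.5e-05, where Tubb3 had -1.14). Its mean was 1.62 FPKM in shLuci and at most 0.372 in the other groups. It passed the filter only through the shLuci libraries, so this difference was built in. The 3 summed to 10.9 to 11.4 FPKM in BMSC, 6.27 to 7.35 in shLuci, 2.99 to 3.39 in shRac1, 2.73 to 3.10 in shLuci+OGD and 7.92 to 8.75 in shRac1+OGD. The part of these markers in the results below was not tested. In bulk RNA, fewer cells of a type and less RNA per cell cannot be told apart.

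The receptors Plxnb2 and Nrp2 were the most abundant members. Plxnb2, a receptor of class 4 semaphorins, averaged 71.5 FPKM over the 15 libraries, and Nrp2, a co-receptor of class 3 semaphorins, 49.3. Efnb1, a transmembrane ephrin, followed at 25.4 FPKM and Ephb4, the receptor best known for binding ephrin-B2, at 24.1. Slit2 led the Slits at 19 FPKM, Sema3c the semaphorins at 18, Ntn4, a netrin of basement membranes, the netrins at 5.6, and Robo1 the Robos at 2.85. Reln averaged 1.75 FPKM. Of the 38 tested genes, 15 averaged at least 10 FPKM, 13 lay from 2 to 10 and 10 lay below 2. The highest group mean was in shLuci for 14 of them, in shRac1 for 9, in shLuci+OGD for 7, in shRac1+OGD for 6 and in BMSC for 2. Unc5b, outside the name rule, averaged 54.6 FPKM and Unc5c 1.75.

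**Figure D1:**
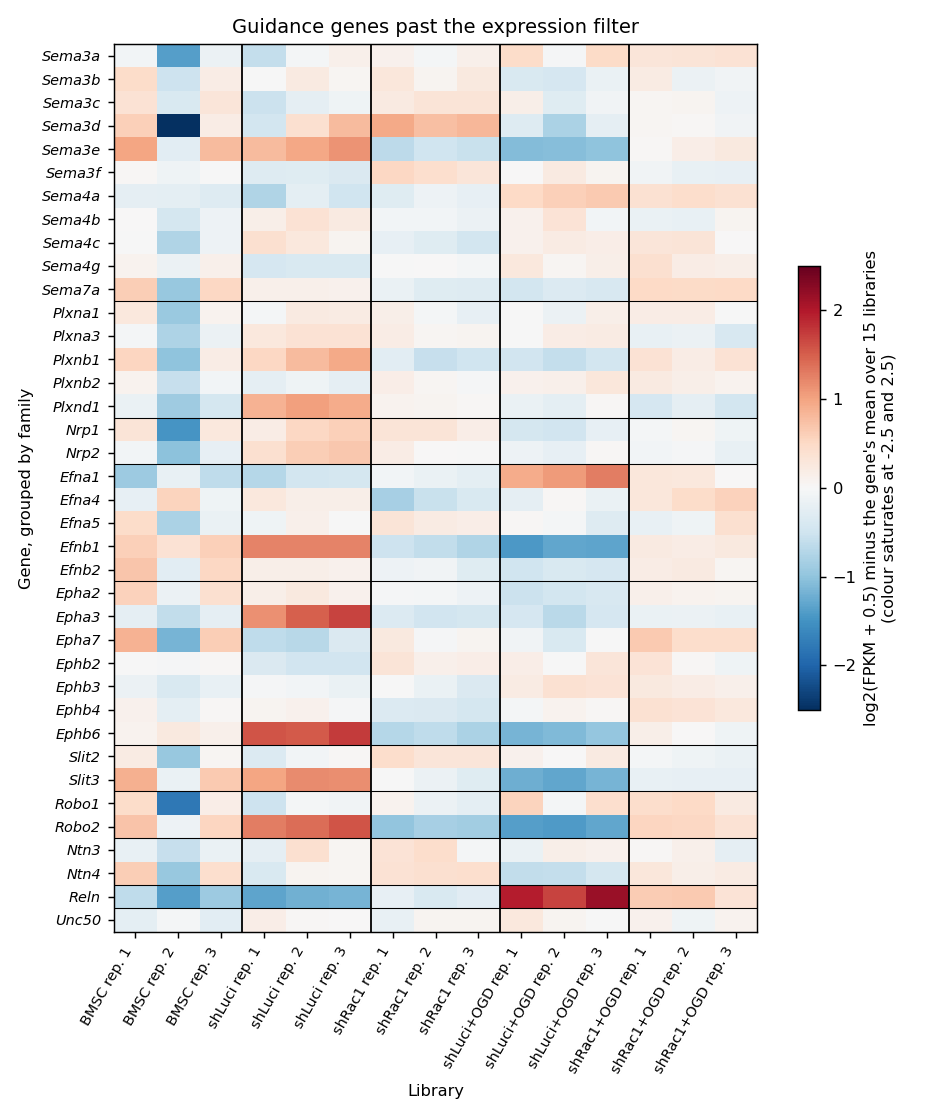
Level of each of the 38 tested genes (rows, grouped by family) in each of the 15 libraries (columns, by group and replicate), as log2(FPKM + 0.5) minus the gene's own mean. Reln and Efna1 are red in the shLuci+OGD libraries, Efnb1, Ephb6, Robo2, Slit3 and Epha3 are red in shLuci and the first 4 of these are blue in shLuci+OGD, and BMSC replicate 2 is blue in most rows.

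The first comparison set the 6 OGD libraries against the 9 undeprived libraries, to ask what differed after deprivation and reoxygenation on average over the groups. All 6 OGD libraries came from cells given a lentivirus, while the BMSC libraries among the 9 did not. Virus and OGD are thus partly mixed in this comparison, and the part of the virus was not tested. Reln, Efna1, Sema4a and Ephb3 were higher in every OGD library than in every undeprived library. Reln stood at 0.516, 0.111 and 0.338 FPKM in BMSC, at 0.133, 0.185 and 0.202 in shLuci and at 0.877, 0.717 and 0.799 in shRac1. After OGD it stood at 5.68, 4.58 and 6.59 FPKM with shLuci and at 1.96, 2.00 and 1.51 with shRac1. The OGD libraries lay above all others, and those of shLuci+OGD above those of shRac1+OGD. The log2 change between OGD and undeprived groups was 2.07 (SE 0.12, limma adjusted p = 7.68e-08), a difference that the filter required. Efna1, a lipid-anchored ephrin that binds Eph-A receptors, stood between 1.01 and 2.22 FPKM in the 9 undeprived libraries, at 4.9, 5.48 and 6.39 in shLuci+OGD and at 2.98, 2.93 and 2.35 in shRac1+OGD. Its log2 change was 1.06 (SE 0.11, limma adjusted p = 1.82e-05), with the same order of the OGD groups. Sema4a, a membrane-bound semaphorin, rose by 0.82 (SE 0.08, limma adjusted p = 9.39e-06), from group means of 1.01 to 1.33 FPKM to 2.66 ± 0.166 in shLuci+OGD and 2.28 ± 0.071 in shRac1+OGD (n = 3). Ephb3, a receptor of ephrin-B ligands, rose by 0.42 (SE 0.06, limma adjusted p = 0.000365), from 13.4 to 17.6 FPKM in undeprived libraries to 20.6, 23.3 and 22.7 in shLuci+OGD and 21.1, 20.3 and 19.4 in shRac1+OGD. These 4 genes come from 4 different branches of the guidance families. Over all genes tested, 4.94% lay higher without overlap and 1.52% lower, where the guidance genes had 4 and 0 of 38. The 4 include Reln, whose difference the filter required. Cd14, the one macrophage marker averaging 1 FPKM, was also higher in every OGD library than in every undeprived one (log2 change 0.46, limma adjusted p = 0.000336). Of the other tested markers on its list, Cd68 stood at -0.23 and Fcer1g at 0.03, and neither was called. The part of these markers in these changes was not tested.

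**Figure D2:**
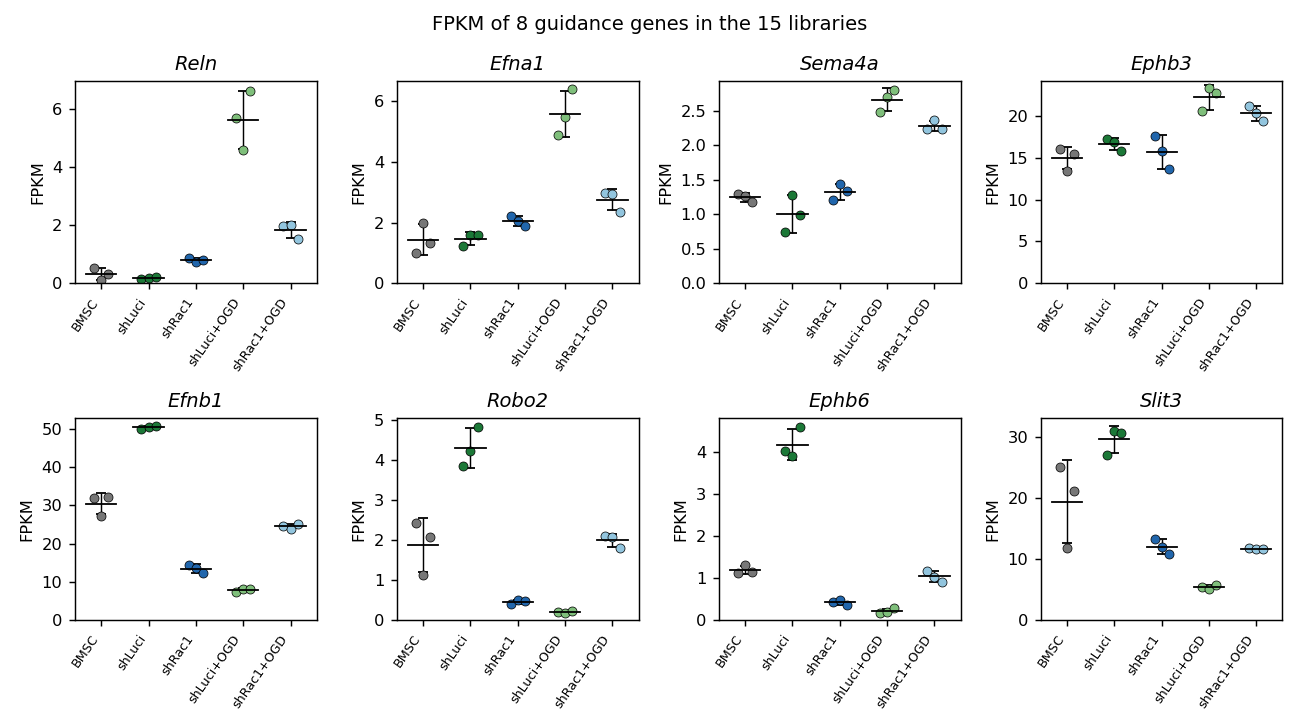
FPKM (y axis, from 0) of 8 guidance genes in the 5 groups, with a point per library, a line at the mean and bars of 1 SD (n = 3). Reln, Efna1, Sema4a and Ephb3 (upper row) lie higher in the 6 OGD libraries than in the 9 others, while Efnb1, Robo2, Ephb6 and Slit3 (lower row) are highest in shLuci and lowest in shLuci+OGD.

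The stretch of 250 bases before the RefSeq start of each of these 4 genes is shown because they rose together after OGD. The sequences are from RefSeq, build GRCr8, read 5′ to 3′ on the gene's strand. Capitals mark matches to ACGTG (the core of hypoxia response elements), TGANTCA (AP-1) or GGAATG (TEAD) on either strand.
Reln, chr4:13628318-13628567, plus strand: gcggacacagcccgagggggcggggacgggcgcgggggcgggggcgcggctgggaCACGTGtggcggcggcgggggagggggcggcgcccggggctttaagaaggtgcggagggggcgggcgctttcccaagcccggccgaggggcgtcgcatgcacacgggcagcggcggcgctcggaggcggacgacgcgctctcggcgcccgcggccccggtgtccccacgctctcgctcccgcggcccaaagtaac
Efna1, chr2:176986822-176987071, minus strand: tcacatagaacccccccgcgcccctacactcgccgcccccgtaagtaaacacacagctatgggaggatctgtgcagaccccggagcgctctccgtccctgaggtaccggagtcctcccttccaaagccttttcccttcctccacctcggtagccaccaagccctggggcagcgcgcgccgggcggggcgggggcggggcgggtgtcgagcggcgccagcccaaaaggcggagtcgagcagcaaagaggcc
Sema4a, chr2:176212259-176212508, minus strand: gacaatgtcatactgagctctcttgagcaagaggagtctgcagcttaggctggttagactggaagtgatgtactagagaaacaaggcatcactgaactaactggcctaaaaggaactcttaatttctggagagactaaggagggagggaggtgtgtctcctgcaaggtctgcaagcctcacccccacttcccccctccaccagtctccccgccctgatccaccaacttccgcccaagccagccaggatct
Ephb3, chr11:93363776-93364025, minus strand: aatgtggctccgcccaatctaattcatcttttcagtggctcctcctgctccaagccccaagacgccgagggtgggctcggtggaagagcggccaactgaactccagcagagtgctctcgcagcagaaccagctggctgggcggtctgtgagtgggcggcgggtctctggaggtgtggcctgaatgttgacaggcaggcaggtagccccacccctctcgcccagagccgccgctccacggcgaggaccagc

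The Reln stretch holds ACGTG once on each strand, the 2 matches overlapping in a palindrome, and the other 3 stretches hold none of the 3 motifs. RefSeq start sites were available for 34 of the 42 genes. ACGTG lay in the stretch of 6 of these 34 (Reln, Sema3e, Sema4b, Slit3, Ntn3 and Unc50) and in 16.6% of all 33469 stretches of that length. TGANTCA lay in 0 of the 34 and in 6.34% of all. GGAATG lay in 2 (Epha2 and Ntn3) and in 12.1% of all.

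Across the families, 7 guidance genes were called higher and 8 lower in OGD libraries, at a limma adjusted p below 0.05 over all 11515 genes. These are 15 of 38 (39.5%), where 26.7% of all genes were called, 18.7% higher and 8.01% lower. The 15 include Reln and Epha3, whose differences were built into the filter. The median log2 change was -0.02 for the 38 genes and 0.10 for all genes, and median-of-ratios scaling, which takes that shift to 0.00, gave 6 higher and 10 lower. Quantile normalization gave 6 higher and 12 lower. Without BMSC replicate 2, 27 of the 38 were called, 11 higher and 16 lower, against 49.2% of all genes, 34.4% higher and 14.8% lower. The other genes called higher were Sema4g (0.33), Ephb4 (0.30) and Plxnb2 (0.26, limma adjusted p = 0.0449). Plxnb2 kept its call in 8 of 25 alternatives only, and 11 of the 15 fits without a single library lost it, with adjusted p-values up to 0.112 (without shLuci+OGD replicate 3). Sema4g kept its call in 23 of 24, missing it with quantile normalization.

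The 8 genes called lower in OGD libraries were Slit3 (-1.18, SE 0.13), Efnb1 (-0.95, SE 0.05), Ephb6 (-0.88), Sema3e (-0.75), Robo2 (-0.74), Epha3 (-0.56), Plxnd1 (-0.42) and Epha2 (-0.31). Slit3, a secreted ligand, and its receptor Robo2 were both among them, as were Sema3e and Plxnd1, the plexin that binds it without a neuropilin. Robo1, the more abundant Robo, stood the other way at 0.59 and was not called (limma adjusted p = 0.152). Each of the 8 overlapped between the 6 OGD and the 9 undeprived libraries, unlike the 4 genes above. These are averages over the groups. By the titles, Robo2 (1.37), Efnb1 (0.84) and Ephb6 (0.74) were called higher from shRac1 to shRac1+OGD. In that comparison Sema3e (0.72), Epha3 (0.25), Epha2 (0.15), Slit3 (-0.04) and Plxnd1 (-0.43) were not called. Epha2, a receptor of Efna1, lost its call without shLuci+OGD replicate 1 (limma adjusted p = 0.0524) and on a TPM scale (0.154). Neither neuropilin and neither tested netrin was called, and of 5 plexins 1 was called higher and 1 lower. Nrp1 stood at a log2 difference of -0.34 and Ntn4 at -0.28, and both were called lower without BMSC replicate 2, at -0.54 and -0.44. Unc5b was lower by the same test (-0.36, limma adjusted p = 0.0307), and Unc5c stood at 0.04 (adjusted p = 0.784).

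**Figure D3:**
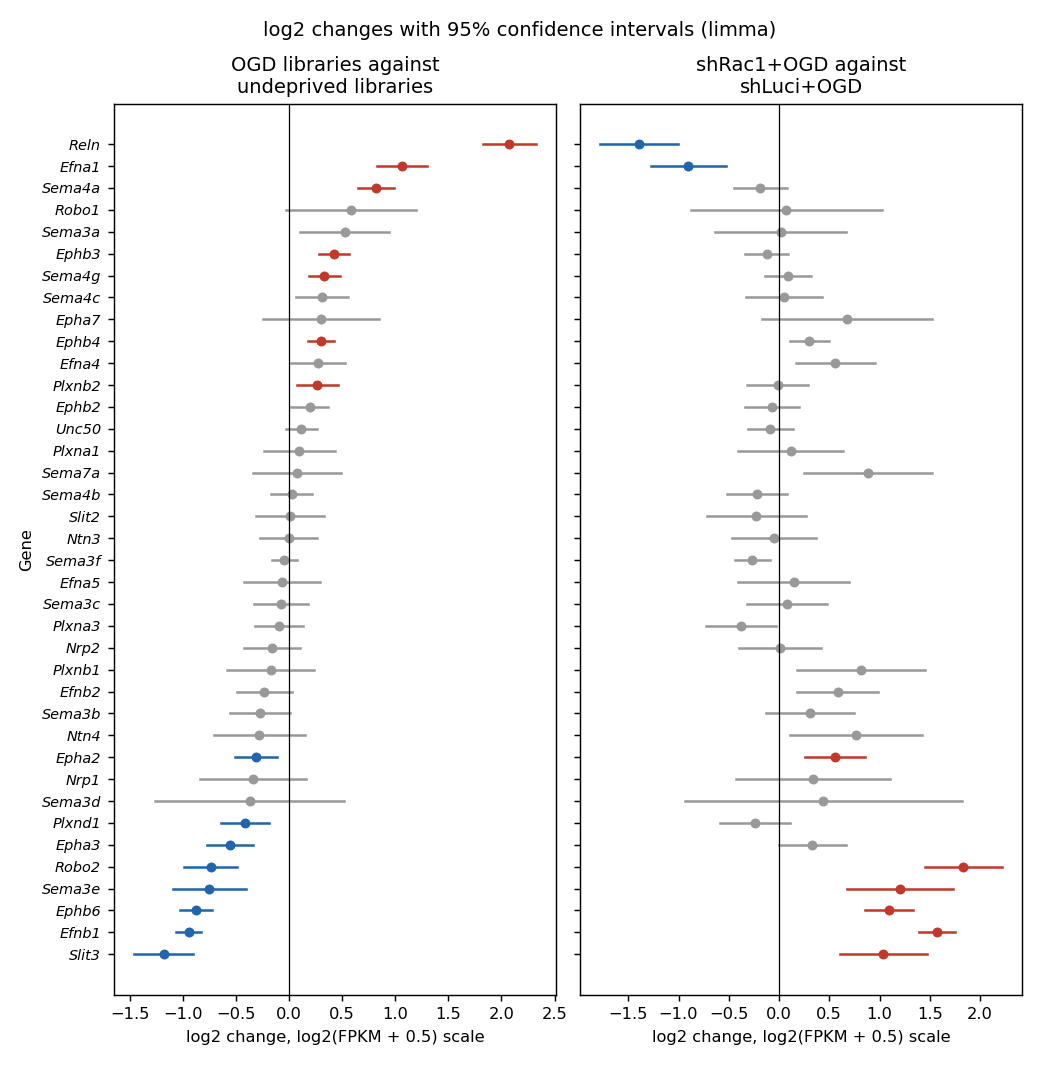
log2 change (x axis, on the log2(FPKM + 0.5) scale) of each of the 38 tested genes with its 95% confidence interval, for all OGD against all undeprived libraries (left) and for shRac1+OGD against shLuci+OGD (right). Red marks genes called higher, blue genes called lower and grey genes not called at a limma adjusted p below 0.05. Reln and Efna1 are highest on the left and lowest on the right, and Slit3, Efnb1, Ephb6, Sema3e and Robo2 are low on the left and high on the right.

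The second comparison set shRac1+OGD against shLuci+OGD, to ask how the hairpins differed after deprivation. Efnb1 was the clearest: 7.42, 8.24 and 8.18 FPKM in shLuci+OGD and 24.6, 24.0 and 25.1 in shRac1+OGD. The groups were far apart, and the log2 change was 1.57 (SE 0.08, 95% confidence interval 1.39 to 1.75, limma adjusted p = 2.07e-07). Robo2 stood at 0.193, 0.17 and 0.23 FPKM against 2.09, 2.08 and 1.80, with 1.83 as the log2 change (SE 0.18, limma adjusted p = 3.47e-05). Ephb6, an Eph receptor without kinase activity, stood at 0.18, 0.20 and 0.276 FPKM against 1.17, 1.03 and 0.906 (log2 change 1.09, SE 0.11, limma adjusted p = 3.94e-05). Slit3 stood at 5.44, 5.13 and 5.69 FPKM against 11.7, 11.6 and 11.6 (log2 change 1.04, SE 0.20, limma adjusted p = 0.00577), and Sema3e at 0.804, 0.834 and 0.892 against 2.33, 2.64 and 2.81 (1.2, SE 0.24, limma adjusted p = 0.00799). Of the receptors of these ligands, Robo2 and Ephb6 were called, while Robo1 (0.07), Plxnd1 (-0.24), Nrp1 (0.34), Nrp2 (0.01), Ephb2 (-0.07), Ephb3 (-0.12) and Ephb4 (0.30) were not. Epha2, at 13.3 ± 0.607 against 19.7 ± 0.445 FPKM (n = 3), was called at 0.56 (limma adjusted p = 0.0277) but lost the call whenever any of the 6 OGD libraries was left out (0.0635 to 0.101). Reln and Efna1 went the other way, with log2 changes of -1.39 (SE 0.18, limma adjusted p = 0.000321) and -0.90 (SE 0.17, limma adjusted p = 0.00512). Of the markers of other cells, Cd14 was lower too (12.4 ± 0.551 FPKM in shLuci+OGD, 8.91 ± 0.264 in shRac1+OGD, n = 3, log2 change -0.45, limma adjusted p = 0.0209). Cd68 (0.24) and Fcer1g (0.36), the other tested markers on its list, stood the other way and were not called. Tubb3 was higher (1.62, limma adjusted p = 8.05e-07). The part of these markers in these differences was not tested.

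In all, 6 of 38 guidance genes were called higher and 2 lower in shRac1+OGD (21.1% together), where 7.43% of all genes were called, 3.85% higher and 3.59% lower. The median log2 change was 0.10 for the 38 and -0.05 for all genes. Quantile normalization gave 11 higher and 1 lower, with Efna1 no longer called (limma adjusted p = 0.0586). Without BMSC replicate 2, 18 were called, 14 higher and 4 lower, against 21.5% of all genes, 9.1% higher and 12.4% lower. The genes gained were Sema7a (0.89), Plxnb1 (0.81), Ntn4 (0.76), Epha7 (0.67), Efnb2 (0.59), Efna4 (0.56), Nrp1 (0.34) and Ephb4 (0.30) among the higher, and Sema3f (-0.26) and Plxna3 (-0.38) among the lower. In the authors' deposited table for this pair, 9 guidance genes are listed as higher and 2 as lower, among 317 higher and 241 lower genes in all. The rule of that list differs from the call used here, so the counts are not at one threshold. Epha7, for example, is listed at an authors' q-value of 0.0615, from a test that is not named. Its higher genes include Sema7a (the authors' log2 change, on a log2(FPKM + 1) scale, 0.86), Ntn4 (0.70), Plxnb1 (0.59) and Epha7 (0.59), and its lower genes are Reln (-1.22) and Efna1 (-0.81).

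The same genes set the 3 undeprived groups apart. Efnb1 stood at 32, 27.3 and 32.2 FPKM in BMSC, at 50.1, 50.6 and 50.7 in shLuci and at 14.5, 13.6 and 12.3 in shRac1, so that no 2 groups overlapped. The shLuci libraries had 4.17 ± 0.367 FPKM of Ephb6, the BMSC libraries 1.18 ± 0.0995 and the shRac1 libraries 0.418 ± 0.0491 (n = 3). Robo2 had 4.30 ± 0.491, 1.88 ± 0.672 and 0.461 ± 0.0521 FPKM in the same order. Epha3, an ephrin-A receptor, was at 1.95 ± 0.444 FPKM in shLuci and at most 0.30 in any library of another group. Sema3e was at 4.95 ± 0.63 FPKM in shLuci and 1.38 ± 0.102 in shRac1. In BMSC it was at 5.03 and 4.31 in replicates 1 and 3, in or near the range of shLuci, and at 1.83 in replicate 2. Slit3 was at 29.6 ± 2.23 FPKM in shLuci, 12.0 ± 1.25 in shRac1 and 25.1, 11.8 (replicate 2) and 21.2 in BMSC. Nrp2 and Plxnd1 were highest in shLuci too, at 70.9 ± 6.57 and 2.66 ± 0.188 FPKM. The order shLuci, then BMSC, then shRac1, with shRac1+OGD above shLuci+OGD, held for the group means of 10 of the 38 genes (26.3%) and of 9.65% of all genes tested. The order was picked after the values of these genes had been seen.

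Of the 38, 11 were called between shLuci and BMSC, 8 higher and 3 lower, against 14.3% of all genes, 9.99% higher and 4.29% lower. The largest log2 changes were for Epha3 (1.80), Ephb6 (1.47), Plxnd1 (1.44), Robo2 (1.05), Nrp2 (1.00) and Efnb1 (0.72, limma adjusted p = 9.75e-05), with Slit3 (0.66) and Plxna3 (0.65) also higher. Epha3 passed the filter only through the shLuci libraries, so its difference was built in. The lower genes were Ephb2, Sema4g and Sema3f, which were no longer called on a TPM scale (7 higher, 0 lower). The split was 9 higher and 6 lower with quantile normalization. The count was 20 without BMSC replicate 2 (against 32% of all genes), 6 without shLuci replicate 2 or 3, 7 without shLuci replicate 1 and 4 in a fit to these 2 groups alone. Robo2 and Nrp2 were not called in the last (adjusted p = 0.132 and 0.163).

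Between shRac1 and shLuci, 16 of the 38 were called, 5 higher and 11 lower, against 16.7% of all genes, 6.92% higher and 9.82% lower. Ephb6 (-2.34, SE 0.11, limma adjusted p = 2.85e-08), Robo2 (-2.32), Efnb1 (-1.87), Epha3 (-1.86, a difference built into the filter), Sema3e (-1.53) and Slit3 (-1.26) were lower in the libraries titled shRac1. Plxnb1 (-1.19), Plxnd1 (-0.88), Efna4 (-0.77), Sema4c (-0.56) and Ephb4 (-0.44) were also lower. Reln (0.95), Sema3f (0.75), Ephb2 (0.65), Sema3c (0.58) and Sema4g (0.37) were higher. Sema3f, whose product binds neuropilin-2, stood at 20.4, 18.9 and 17.5 FPKM in shRac1 against 11.1, 11.2 and 10.8 in shLuci. Without BMSC replicate 2, 26 were called, against 37.3% of all genes. Between shRac1 and BMSC 9 were called, 3 higher and 6 lower, against 10.7% of all genes, 6.39% higher and 4.31% lower. The counts for the 38 were 2 and 9 with median-of-ratios scaling, 2 and 10 with quantile normalization and 1 and 4 on a TPM scale. Efnb1 (-1.15) and Robo2 (-1.27) led the lower genes. The count was 15 without BMSC replicate 2, against 21.1% of all genes, and 4 or 5 without shRac1 replicate 1 or 2.

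OGD was then read within each hairpin, by the titles. From shLuci to shLuci+OGD, 18 of the 38 were called, 7 higher and 11 lower (22.3% of all genes called, 13.1% higher and 9.18% lower; 29 of the 38 without BMSC replicate 2, against 45.7% of all genes; 6 and 15 with quantile normalization). Robo2 (-2.78), Ephb6 (-2.70), Efnb1 (-2.59, SE 0.08), Slit3 (-2.34), Sema3e (-2.01), Epha3 (-1.94), Plxnb1 (-1.26) and Plxnd1 (-1.07) were lower by more than 1 on the log2 scale. The difference for Epha3 was built into the filter. Reln (3.17, SE 0.18), Efna1 (1.62) and Sema4a (1.08) were higher by as much. From shRac1 to shRac1+OGD, 9 were called, 8 higher and 1 lower (11.9% of all genes called, 7.76% higher and 4.19% lower; 22 of the 38 without BMSC replicate 2, against 30.1% of all genes; 10 and 3 with quantile normalization). Robo2 (1.37), Efna4 (1.03), Efnb1 (0.84), Reln (0.83), Ephb6 (0.74), Ephb4 (0.71), Sema4a (0.61) and Ephb3 (0.37) were higher and Sema3f (-0.57) was lower. Reln, Sema4a and Ephb3 were thus called higher in both, whereas Efnb1, Robo2 and Ephb6 were called lower in the first and higher in the second. For Reln, a higher level after OGD was built into the filter.

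The test of the difference between both responses, the hairpin by OGD interaction, was called for 15 of the 38, 11 with a positive and 4 with a negative value, against 16.7% of all genes, 8.88% positive and 7.82% negative. Robo2 (4.15, SE 0.25), Efnb1 (3.44, SE 0.12, limma adjusted p = 1.33e-09), Ephb6 (3.44), Sema3e (2.73) and Reln (-2.34) had the largest values. Epha3 is among the 15, and its high level in shLuci was built into the filter. Without BMSC replicate 2 the number was 23, against 36.6% of all genes. With the OGD groups set against the undeprived groups that the authors' lists use (shLuci+OGD against shRac1, shRac1+OGD against BMSC), an alternative added after the data had been seen, the same difference was called for 0 of the 38 and for 38 of all 11515 genes, in place of 1922. This alternative was fitted with all 15 libraries only and was not repeated without BMSC replicate 2. In it, Efnb1 stood at -0.72 and -0.30, a difference of 0.42 (SE 0.12, limma adjusted p = 0.207), and Robo2 at -0.46 and 0.11 (adjusted p = 0.548). Reln stood at 2.23 and 1.52 (adjusted p = 0.386) and Efna1 at 1.25 and 0.77 (adjusted p = 0.612). Over the 38 genes, both OGD differences had the same sign in 21 (55.3%) by the titles and in 24 (63.2%) by the lists' pairs, against 53.3% and 67% of all genes. The 2 OGD differences of each pairing share no library. In the list pairs, 9 of the 38 were called for shLuci+OGD against shRac1, 5 higher and 4 lower (15.7% of all genes, 10.7% higher and 5.01% lower), and 6 for shRac1+OGD against BMSC, 5 higher and 1 lower (13.5% of all genes, 9.94% higher and 3.53% lower). Without BMSC replicate 2 these counts were 20 (37.4% of all genes) and 13 (26.3%), and the second was 2 without shRac1+OGD replicate 1 or 2 and 0 in a fit to its 2 groups alone. With median-of-ratios scaling they were 5 higher and 7 lower, and 3 higher and 2 lower, and with quantile normalization 5 and 7, and 2 and 3. On a TPM scale they were 4 and 2, and 4 and 0.

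**Figure D4:**
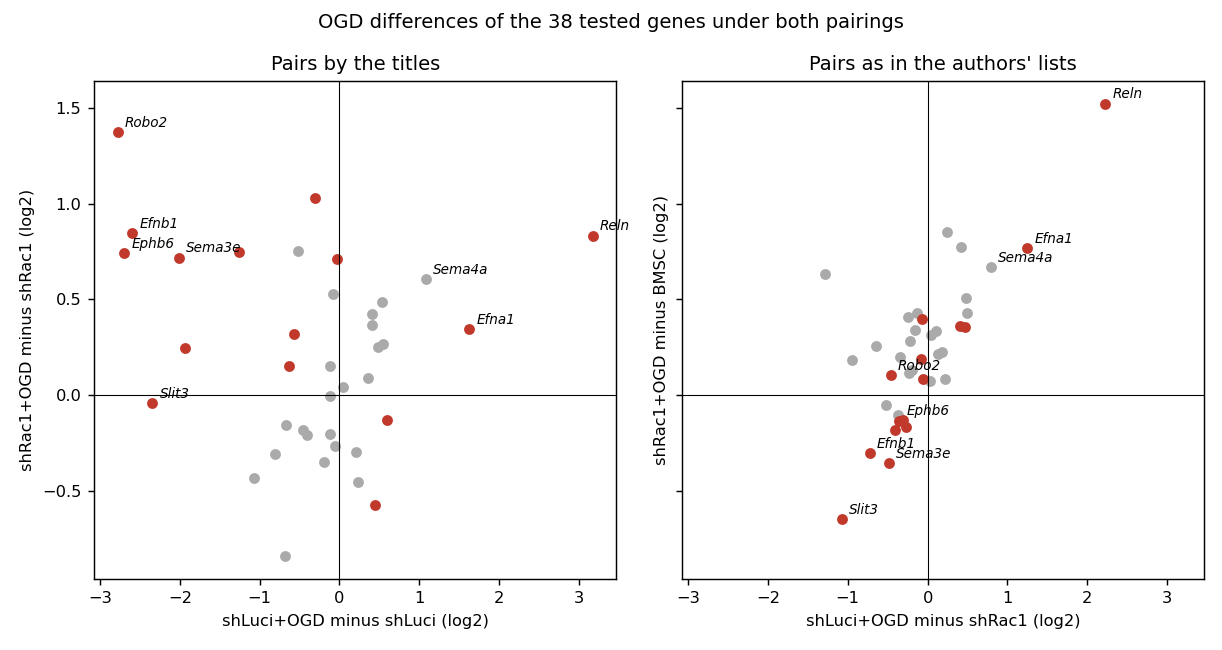
OGD difference (log2, on the log2(FPKM + 0.5) scale) of each of the 38 tested genes in shLuci+OGD (x axis) and shRac1+OGD (y axis), against the undeprived group with the same hairpin in its title (left) and against the group used in the authors' lists (right). Red marks the 15 genes whose interaction by the titles was called. Efnb1, Ephb6, Robo2 and Sema3e lie in the upper left on the left side, and Efnb1, Ephb6, Sema3e and Slit3 in the lower left on the right side, while Reln and Efna1 lie in the upper right of both.

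Some guidance genes lie close together. Positions are as the authors' table gives them, in a build not given in the sources used here. Efna1, Efna3 and Efna4 lie within 71.4 kb on chromosome 2 (188588796 to 188660179). Efna1 was higher after OGD at 1.06, Efna4 stood at 0.27 without a call (0.35 and called without BMSC replicate 2), and Efna3 was at 0.978 FPKM or less in every library. Sema3a, Sema3c, Sema3d and Sema3e lie between 14318274 and 19413484 on chromosome 4. Of these 4 only Sema3e was called between OGD and undeprived libraries or between the OGD groups, and without BMSC replicate 2 Sema3d (-0.71) and Sema3a (0.39) were called after OGD too. Between shRac1 and shLuci, Sema3c was called higher (0.58) and Sema3e lower (-1.53). Sema3b and Sema3f lie within 115.8 kb on chromosome 8, and neither was called in those comparisons unless BMSC replicate 2 was left out (Sema3b -0.36 after OGD, Sema3f -0.26 in shRac1+OGD). Robo1 and Robo2 lie within 1943.4 kb on chromosome 11. Robo1 stood between 2.24 and 3.64 FPKM as group means, while the group means of Robo2 ran from 0.198 to 4.30.

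Other genes of guidance signalling were taken from a list of 56, which the table holds in 47 rows, 2 of them for Abl1, and 46 rows were tested. After OGD 4 rows were called higher and 10 lower (30.4%, against 26.7% of all genes). Flrt3, a membrane ligand of Unc5 receptors, had group means of 0.571 (shRac1) to 1.77 FPKM (BMSC) without OGD. After OGD it had 0.15 in shLuci+OGD and 0.791 in shRac1+OGD (log2 change -0.91, SE 0.08, limma adjusted p = 3.59e-06). The OGD and undeprived libraries overlapped, with shRac1+OGD above shRac1 on average. Flrt3 reached 1 FPKM in undeprived libraries only, so a lower level after OGD was built into the filter. Farp2, an exchange factor for Rac that plexins recruit, went from 3.91 to 4.77 FPKM to 2.11 and 2.41 (-0.78, limma adjusted p = 9.24e-06) with no overlap between the libraries. Chn1, a brake on Rac used by Eph receptors, was lower at -0.40 and Rgma, a ligand of neogenin, was higher at 0.61. Between the OGD groups 5 were higher and 1 lower in shRac1+OGD (13%, against 7.43% of all genes). Crmp1, a mediator of semaphorin signals, stood at 1.10 ± 0.226 FPKM in shLuci+OGD and 3.31 ± 0.507 in shRac1+OGD (n = 3, 1.25, limma adjusted p = 0.000137). Flrt3 was higher at 0.99 and Rgma lower at -0.54. Chn1 (0.23, limma adjusted p = 0.0378) lost its call when any of 12 single libraries was left out, with adjusted p-values up to 0.166 (without shRac1+OGD replicate 3).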

How the data were processed

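The authors deposited one FPKM per gene and library. Per the submitters' processing notes the tools were HISAT2 and StringTie 1.2.3. Neither the HISAT2 version nor the genome build is stated there (not given in the sources used here). Read depth is unknown, since low FPKM showed no steps of whole reads. The authors' deposited lists of changed genes carry a log2 fold change, which equals the difference of group means of log2(FPKM + 1), its linear ratio, and p-values and q-values from a test that the file headers do not name.

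Groups came from sample titles. Genes with at least 1 FPKM in 3 of 15 libraries were tested (11515, with 654 removed) as log2(FPKM + 0.5), which understates changes of low genes. limma 3.58.1 in R 4.3.3 (eBayes with trend) fitted 5 group means to 15 libraries, and p-values, two-sided, were adjusted by Benjamini-Hochberg over all genes tested in each of 10 comparisons. Adjusted p below 0.05 counted as a call. Members and lists were chosen with earlier results of these data known. Named genes are those called with the largest changes and a group mean of at least 2 FPKM, the most abundant of each family, and up to 4 listed partners per comparison. Other called members, Robo2, Ephb6 and Epha3 below that level among them, were named after their values were seen. Alternatives covered pseudocount, filter, scaling, groups fitted, replicate block, library weights, trend and each library left out.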

Additional observations from a re-analysis of the deposited data

Results flagged for a closer look

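For 15 guidance genes the OGD difference was not the same under both hairpins by the titles, in limma's test of the interaction (log2, shRac1 response minus shLuci response). The positive values were Robo2 4.15, Efnb1 3.44, Ephb6 3.44, Sema3e 2.73, Slit3 2.30, Epha3 2.19, Plxnb1 2.01, Efna4 1.33, Efnb2 0.89, Epha2 0.79 and Ephb4 0.74. The high level of Epha3 in shLuci was built into the filter. The negative values were Reln -2.34, Efna1 -1.28, Sema3f -1.01 and Ephb2 -0.72. None of the 15 was called when the OGD groups were set against the groups that the authors' lists use, a choice made after the data had been seen. That fit used all 15 libraries and was not repeated without BMSC replicate 2. Why the pairings differ was not tested.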

How the results depend on the processing

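Of 1302 values of 52 named results under the alternatives, 1240 kept direction and side of the threshold, 52 fell short of it, 4 passed it newly and 6 changed sign. The 6 were Rac1 in shRac1+OGD against shLuci+OGD, at 0.0493 on a TPM scale, 0.0443 with median-of-ratios scaling, 0.0232 with quantile normalization, 0.0523 and 0.0177 without shLuci+OGD replicate 2 and 3 and 0.0076 without shRac1+OGD replicate 1, in place of -0.0035, and leaving out single libraries gave -0.0805 to 0.0523. The counts of called guidance genes moved most, given here in the order OGD libraries against undeprived, shRac1+OGD against shLuci+OGD, shLuci against BMSC, shRac1 against shLuci, shRac1 against BMSC, shLuci+OGD against shLuci, shRac1+OGD against shRac1, shLuci+OGD against shRac1, shRac1+OGD against BMSC and the interaction. They were 15, 8, 11, 16, 9, 18, 9, 9, 6 and 15 as reported. Leaving out each library in turn gave 13 to 27, 7 to 18, 6 to 20, 12 to 26, 4 to 15, 16 to 29, 8 to 22, 7 to 20, 2 to 13 and 14 to 23, the highest each time without BMSC replicate 2. Library weights gave 30, 19, 26, 31, 24, 31, 32, 25, 20 and 28, with a warning that the weights had not converged. A filter at a mean of 5 FPKM, which tests fewer genes, gave 5, 3, 4, 5, 4, 7, 5, 5, 3 and 7. Fits to the compared groups alone, which the first comparison does not have, gave 17 for shRac1+OGD against shLuci+OGD, 4 for shLuci against BMSC, 26 for shRac1 against shLuci, 2 for shRac1 against BMSC, 24 for shRac1+OGD against shRac1, 19 for shLuci+OGD against shRac1 and 0 for shRac1+OGD against BMSC. A TPM scale gave 7 for shLuci against BMSC and 5 for shRac1 against BMSC. The interaction with the lists' pairs gave 0 in its only fit, which used all 15 libraries. Apart from that fit and those without BMSC replicate 2, the share of all genes called under an alternative is not given. The counts therefore show how far the number of guidance genes moved, not how they compare with all genes. The fit shares a single estimate of each gene's spread over all 5 groups. BMSC replicate 2 therefore enters the standard error of every comparison, also of those without the BMSC group. Rac1 in shRac1 against shLuci, for example, kept its log2 change of -0.0867 without that library. Its limma adjusted p was then 0.343 in place of 0.577. The cause of the other moves was not tested.

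Replicate numbers did not pair the libraries: over 30 pairs with the same number in different groups the correlation of deviations ran from -0.64 to 0.56 with a median of -0.02, against -0.01 for other numbers, and 5 of 15 libraries correlated best with their own number. With the replicate number as a block the counts were 14, 8, 10, 14, 8, 17, 9, 8, 5 and 14. Precision is limited by 3 libraries per group and by a depth that the FPKM do not give.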
